A study of Homo sapiens with 12 samples.

Results

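The RNA libraries of a zotatifin study are described here, without the ribosome footprints that were sequenced beside them. They were 6 of 12 libraries: 3 from vehicle-treated and 3 from zotatifin-treated tumours. Of 19038 transcripts in the RNA count table, 13118 passed a filter on low RNA counts and were tested, whether or not they had enough footprints to be measured there. The tumours were xenografts of 22Rv1, an established human prostate cancer cell line, grown under the skin of the hind flank of male immunodeficient NSG mice aged 6 to 8 weeks at injection. Every animal carried the same cell line, so both groups share its genotype, and the labels name no engineered change. Mice were randomised at a tumour volume of 70 to 100 mm3 and injected into the peritoneum with zotatifin at 0.3 mg/kg in 5% dextrose, or with 5% dextrose alone, which was the vehicle. Tumours were frozen 6 h later, and RNA came from a detergent lysate that had been cleared by centrifugation, made into libraries with a stranded total RNA kit. The labels state 3 independent replicates but not whether each was 1 animal, so p-values measure the spread between these samples. NSG mice lack mature lymphocytes but keep other host cells, so a tumour also holds mouse stroma and mouse myeloid cells. The treatment field contradicts the title in 6 of the 12 samples, and groups were taken from the titles.

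Zotatifin inhibits eIF4A, the helicase that opens structured mRNA leaders for the scanning ribosome. The drug clamps eIF4A onto RNA, and its first effect is on translation rather than on transcription. RNA levels can follow within hours, because short-lived repressors stop being made, because untranslated mRNA can be stabilised or decayed, and because stress kinases act on transcription factors. AP-1, a dimer of JUN with FOS or ATF partners, is the textbook target of such kinases. The unfolded protein response matches chaperone genes of the endoplasmic reticulum (ER) to the load of new protein entering it, and the SREBP pathway does the same for sterols.

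Total counts ran from 5761921 to 7121802 in the vehicle libraries and from 6594884 to 8153674 in the zotatifin libraries. The first principal component of log2 expression held 37.3% of the variance and separated the treatments, with vehicle library 2 closest to the zotatifin libraries. The second held 20.0% and set vehicle library 2 apart. In that library, 15 muscle and adipocyte markers summed to 409.9 CPM (counts scaled to a common library total), against 39.7 to 131 CPM in the other 5. The 16 luminal prostate markers, which the labelled cell line should express, all passed the low-count filter. They summed to 5313 to 6338 CPM in vehicle and 6143 to 6654 CPM in zotatifin tumours. HOXB13 and KLK3 are among them, but the sum does not give the level of each, and KLK3 was low (values below). Counts assigned to PLCG2, a phospholipase gene, took 2.03% to 2.53% of each vehicle library and 1.09% to 1.79% of each zotatifin library.

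A call here means an adjusted p below 0.05 in edgeR's quasi-likelihood test with Benjamini-Hochberg adjustment over all 13118 transcripts. There were 225 calls, 1.72% of the transcripts tested: 106 rose (0.808%) and 119 fell (0.907%) under zotatifin. Every change below is log2 of zotatifin over vehicle, with its standard error (SE, n = 3 per group). The rises were small, with a median of 0.64 and 6 above 2-fold, and the falls larger, with a median of -0.90 and 50 beyond 2-fold. The median over all tested transcripts was -0.0023, and 49.7% of them had a change above 0. In 3035 transcripts (23.1%) the 3 zotatifin values lay entirely above or entirely below the 3 vehicle values. This held for 221 of the 225 calls. Where a lack of overlap is given below for a call, it describes the same values and is no added support. In the authors' deposited table of the same comparison, 313 of 12661 transcripts with an adjusted p were called (2.47%). That table called 218 of the 225 and gave the same sign for 225.

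The calls rest on few libraries. Leaving out vehicle library 1 left 11 calls, leaving out vehicle library 3 left 25, and leaving out zotatifin library 3 or 1 left 48 or 56. Without vehicle library 2 there were 396 calls, and without zotatifin library 2 there were 233. Among the 225, 9 stayed called whichever library was left out: the rises of JUN, IRX3, TSC22D4, ZNF174 and TGFB3, and the falls of COL1A2, DONSON, FBN1 and TIMP2. Every other call named below was lost in at least 1 of these 6 fits, and a library whose removal ended it is named with the adjusted p found without it. Of the 48 class and 19 factor lists used below, 31 held no call by edgeR. Their 1112 members, counted once per list, include 92 higher and 70 lower at an unadjusted p under 0.05, and DESeq2 on the same transcripts called 9 of them as risen and 6 as fallen.

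Transcription factors were described through 19 lists of families, which together held 1245 genes of the table. Of these, 1004 transcripts were tested, 20 rose and 9 fell, which is 2.89% against 1.72% of all transcripts. Their median change was 0.005, beside -0.0023 over all transcripts tested. Leaving aside the large lists of ZNF-named and of ZBTB and ZSCAN zinc finger genes, 467 were tested, 13 rose and 5 fell (3.85%). The lists were chosen with earlier results of these data known, so these shares carry that choice.

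JUN, the AP-1 subunit whose own gene is an AP-1 target, had the smallest adjusted p of any transcript. The gene lies at chr1:58780791-58784047 of GRCh38.p14. Its level was 103, 123.4 and 133 CPM in vehicle libraries 1 to 3 and 333, 466 and 326 CPM in zotatifin libraries 1 to 3. The lowest zotatifin value was above the highest vehicle value by a wide margin, and the change was 1.64 ± 0.15, adjusted p = 1.94e-06. It stayed called without any 1 library, with adjusted p of at most 0.00259. Other members of the AP-1, ATF and MAF list did not pass by edgeR: 36 were tested, 1 rose and 0 fell (2.78% called, beside 1.72% of all transcripts). DESeq2 called 2 rises and 1 fall in this list. At an unadjusted p under 0.05, 5 were higher and 2 lower. JUNB, at 31.5, 31.6 and 33.2 CPM in vehicle and 41.7, 47.7 and 37.7 CPM in zotatifin tumours, and JUND, at 336, 343 and 312 and 403, 481 and 420.0 CPM, did not overlap between the groups but missed the threshold (0.40 ± 0.15, adjusted p = 0.155 and 0.40 ± 0.12, adjusted p = 0.0927). FOS was low and scattered, at 2.62, 9.17 and 10.0 CPM in vehicle and 5.56, 7.01 and 5.95 CPM in zotatifin tumours (adjusted p = 0.749). ATF3, a stress-induced partner of JUN, was at 36, 43.2 and 37.1 CPM and 38.7, 44.1 and 33.9 CPM (adjusted p = 0.996).

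IRX3 and IRX5, homeobox factors that lie in the same gene cluster on chromosome 16 (chr16:54283304-54286787 and chr16:54930865-54934485), both rose. IRX3 was at 259, 260.4 and 207 CPM in the vehicle and 496, 578 and 487 CPM in the zotatifin libraries, 1.11 ± 0.13, adjusted p = 0.000125. IRX5 was at 73.1, 60.2 and 64.7 CPM in the vehicle and 99.3, 124 and 101 CPM in the zotatifin libraries, 0.71 ± 0.13, adjusted p = 0.00937. Neither gene overlapped between the groups, and the IRX5 call was lost on removal of vehicle library 1 (adjusted p = 0.0652) or vehicle library 3 (0.0709). The list of homeobox factors outside the HOX clusters was even: of 66 tested, 3 rose and 2 fell (7.58% called, beside 1.72% of all transcripts). A change above 0 was seen in 33 and below 0 in 33. TBX3, a T-box repressor that is in none of the lists, was at 195, 185 and 198 CPM in vehicle and 318, 303 and 326 CPM in zotatifin tumours, 0.71 ± 0.12, adjusted p = 0.00456. Its values were tight within each group, and its adjusted p without vehicle library 1 was 0.0517. The 24 tested HOX cluster genes held no call by edgeR, and 22 of them had a change above 0 (median 0.153). At an unadjusted p under 0.05, 2 were higher, and DESeq2 called 1. HOXB13, a prostate lineage factor and the HOX gene nearest to a call, was at 178, 191 and 174 CPM in vehicle and 254, 233 and 247 CPM in zotatifin tumours, 0.43 ± 0.12, adjusted p = 0.0553.

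Of 23 tested SOX and HMG-box factors, 2 rose and 0 fell (8.7% called, beside 1.72% of all transcripts). A change above 0 was seen in 13 and below 0 in 10. At an unadjusted p under 0.05, 5 were higher and 4 lower. The 2 rises were SOX4 and SOX13. SOX4, a progenitor factor active in prostate cancer, was at 97, 85.6 and 118 CPM in vehicle and 177, 166 and 172 CPM in zotatifin tumours, 0.78 ± 0.13, adjusted p = 0.00456. SOX13 was at 56, 58.1 and 53.8 CPM and 96.4, 76.3 and 92.5 CPM, 0.66 ± 0.13, adjusted p = 0.0143. The zotatifin values lay above every vehicle value for both, and both calls were lost on removal of vehicle library 1 (adjusted p = 0.0733 for SOX4 and 0.105 for SOX13). RARG, a retinoic acid receptor, was the 1 called member of 34 tested nuclear receptors. It was at 36.2, 31.9 and 27.3 CPM in vehicle and 52.5, 58.1 and 48.7 CPM in zotatifin tumours, 0.74 ± 0.15, adjusted p = 0.0151, and at an adjusted p of 0.0988 without vehicle library 3. CEBPD, an acute-phase basic leucine zipper factor, was at 74.8, 85.9 and 85.4 CPM in vehicle and 109, 129 and 122 CPM in zotatifin tumours, 0.55 ± 0.12, adjusted p = 0.0284. TSC22D4, a leucine zipper protein of the TSC22 family, went from 79.2, 70.6 and 61.9 CPM to 129.6, 125 and 122 CPM, 0.83 ± 0.13, adjusted p = 0.00207, and stayed called without any 1 library. CEBPD did not stay called without vehicle library 1 (adjusted p = 0.165).

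TGF-beta signalling was represented among the rises by a ligand, a transducer and a corepressor. TGFB3, a secreted ligand, was at 12.2, 9.33 and 11.4 CPM in vehicle and 30.8, 21.3 and 23.8 CPM in zotatifin tumours, 1.21 ± 0.20, adjusted p = 0.00456. SMAD1, which carries BMP signals to the nucleus, was at 21, 12.3 and 18.1 CPM and 28.9, 30.7 and 36.8 CPM, 0.91 ± 0.19, adjusted p = 0.0184. TGIF1, a homeobox corepressor of SMAD-driven transcription, was at 8.39, 4.75 and 11.3 CPM and 18.5, 24.1 and 22.2 CPM, 1.39 ± 0.25, adjusted p = 0.00716. No zotatifin value fell among the vehicle values for these genes, although vehicle library 2 was the lowest library for each. TGFB3 stayed called without any 1 library, while SMAD1 and TGIF1 had adjusted p of 0.0911 without zotatifin library 3 and 0.0838 without vehicle library 1. A receptor and a ligand fell. ACVR2B, an activin receptor, was at 72.6, 41.6 and 65.1 CPM in vehicle and 33.3, 23.5 and 32.3 CPM in zotatifin tumours, -1.0 ± 0.18, adjusted p = 0.0088. BMP7, a BMP ligand, was at 11, 9.17 and 15.7 CPM and 4.96, 7.63 and 3.57 CPM, -1.17 ± 0.30, adjusted p = 0.0484. These calls were lost on removal of vehicle library 1 or 3 (adjusted p of 0.0709 to 0.21). Over the whole TGF-beta and BMP list, 34 were tested, 1 rose and 2 fell, with a median of -0.11. That is 8.82% called, beside 1.72% of all transcripts. TGIF1 and SMAD1 were counted in the list of SMAD and TGF-beta responsive factors, where 19 were tested, 2 rose and 0 fell.

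Zinc finger genes named ZNF gave the largest number of called factors, 7 rises and 3 falls among 476 tested, a share of 2.10% beside the 1.72% of all transcripts. ZNF174, a repressor of growth factor promoters, was at 10.5, 9.66 and 11.5 CPM in vehicle and 26, 29.9 and 21.8 CPM in zotatifin tumours, 1.29 ± 0.19, adjusted p = 0.00207, and stayed called without any 1 library. The other 6 rises were ZNF146, ZNF322, ZNF444, ZNF48, ZNF672 and ZNF768, with changes from 0.50 to 0.70. ZNF655, ZNF70 and ZNF141 fell, with changes of -1.03, -0.61 and -0.57 on the log2 scale. The groups did not overlap for any of these 10 genes. Without vehicle library 1 the adjusted p of the 9 other than ZNF174 ran from 0.0897 to 0.214. Further rises were FOXJ2, a forkhead factor (0.57 ± 0.13, adjusted p = 0.0302), and IRF2BP1, a corepressor that binds IRF2 (0.51 ± 0.12, adjusted p = 0.0322), both lost on removal of vehicle library 1 (adjusted p = 0.159 and 0.153).

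Among the other falls, REL and NFIC were the best measured. REL, an NF-kB subunit, was at 406, 361 and 487 CPM in vehicle and 267, 254 and 319 CPM in zotatifin tumours, -0.58 ± 0.13, adjusted p = 0.0322. NFIC, a nuclear factor I protein, was at 376, 369 and 266 CPM and 254, 157 and 232 CPM, -0.65 ± 0.16, adjusted p = 0.0423. The REL groups did not overlap, and the lowest vehicle value of NFIC stood close to its highest zotatifin value. Without vehicle library 3 the REL call had an adjusted p of 0.167, and without vehicle library 1 the NFIC call had 0.213. SPI1 and POU2F2, which define myeloid and B cells, ZBTB18, a neuronal repressor, and TSHZ2 fell by more than 2-fold from levels of at most 22.7 CPM. SPI1 was at 12.2, 9 and 22.7 CPM in vehicle and 5.68, 6.23 and 1.85 CPM in zotatifin tumours, -1.69 ± 0.39, adjusted p = 0.0414. For these 4 the adjusted p without vehicle library 1 was 0.159 to 0.243. SPI1 is itself a myeloid marker, and the myeloid marker values are given with the stromal genes. E2F, MYB and p53 family genes were not called by edgeR or DESeq2 (1 higher and 2 lower at an unadjusted p under 0.05), and 1 of 16 tested had a change above 0 (median -0.101), E2F8, a repressor of the family, at 0.44 ± 0.16, adjusted p = 0.138. Basic helix-loop-helix factors (52 tested) and KLF and SP factors (20 tested) held no call by edgeR. At an unadjusted p under 0.05, 5 and 2 of these were higher and 6 and 3 lower. DESeq2 called 1 rise and 2 falls among the helix-loop-helix factors and 0 among the KLF and SP factors.

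**Figure D1:**
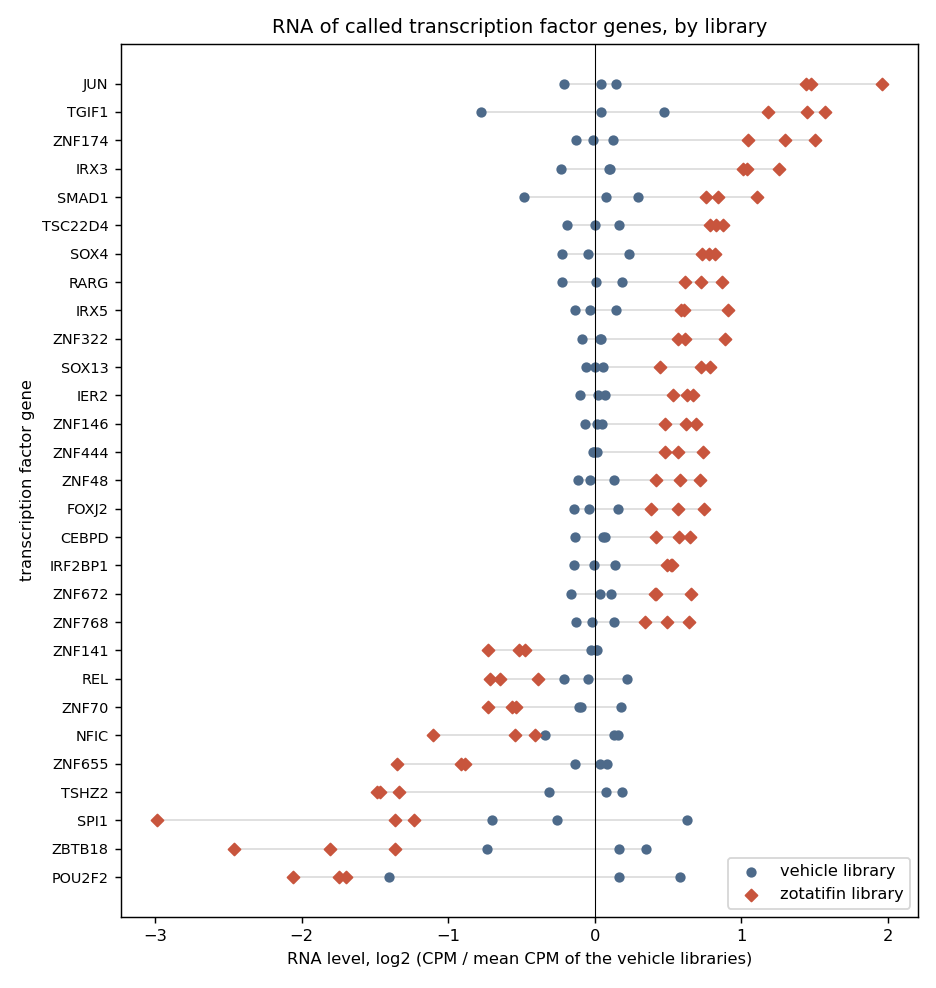
RNA level of each called transcription factor gene of the lists in the 6 libraries, as log2 of CPM over the mean of the vehicle libraries; circles are vehicle and diamonds zotatifin libraries. JUN stands highest among the 20 rises, and SPI1 and POU2F2 among the 9 falls show the widest scatter between vehicle libraries.

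Signalling genes that answer growth factor and stress kinases rose in part. Of 30 tested MAPK feedback phosphatases and inhibitors, 4 rose (13.3%, beside 0.808% of all transcripts) and 0 fell. A change above 0 was seen in 20 (median 0.122). IER2 and IER5, immediate early genes, were at 66.6, 74.8 and 72.5 and 34.1, 32.1 and 31.2 CPM in vehicle and at 113, 110.1 and 103 and 47.2, 52.2 and 48.2 CPM in zotatifin tumours (0.61 ± 0.12, adjusted p = 0.0143 and 0.60 ± 0.14, adjusted p = 0.0322). DUSP10 and DUSP16, phosphatases that act on JNK and p38, were at 10.8, 12.3 and 13.8 and 73.3, 58.9 and 71.8 CPM in vehicle and 17.5, 25.4 and 22.8 and 100.4, 93.6 and 96.6 CPM in zotatifin tumours (0.82 ± 0.20, adjusted p = 0.0408 and 0.51 ± 0.13, adjusted p = 0.042). None of the 4 overlapped between the groups. Each was lost on removal of vehicle library 1, with adjusted p from 0.119 to 0.185, and leaving out 1 library gave 0 to 4 rises in this list. DUSP6, the phosphatase of ERK, had a change of 0.83 ± 0.26, adjusted p = 0.0932 and was not called. RHOB, an early-response GTPase, was at 102, 115 and 103 CPM in vehicle and 167, 199 and 159 CPM in zotatifin tumours, 0.71 ± 0.12, adjusted p = 0.00623 (adjusted p = 0.0817 without vehicle library 1). The JNK and p38 kinase cascades themselves had 28 tested and no call.

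Transcripts of the ER folding machinery were lower under zotatifin. All 35 members of the list of ER chaperones and the unfolded protein response were tested. Of these, 4 fell (11.4%, beside 0.907% of all transcripts), 0 rose and 29 had a change below 0. The list's median was -0.334, beside -0.0023 for all transcripts. At an unadjusted p under 0.05, 0 were higher and 17 lower, and DESeq2 called 7 falls and 0 rises. In 16 members the zotatifin values lay entirely below the vehicle values, and in 0 entirely above. The share without overlap over all transcripts, in either direction, was 23.1%. HSPA5 (BiP, the main ER chaperone and the sensor that holds the stress receptors inactive) was at 646, 613 and 678 CPM in vehicle and 431, 408 and 346 CPM in zotatifin tumours, -0.71 ± 0.12, adjusted p = 0.00644. HYOU1, its nucleotide exchange factor, was at 369, 352 and 361 CPM and 299, 241 and 220.1 CPM, -0.51 ± 0.13, adjusted p = 0.0469. UGGT1, which checks the folding of glycoproteins, was at 91.6, 70.6 and 90.7 CPM and 61.8, 53.3 and 53.3 CPM, -0.59 ± 0.13, adjusted p = 0.0322. SYVN1 (HRD1, the ubiquitin ligase of ER-associated degradation) was at 47.7, 48.3 and 48.7 CPM and 33.9, 30.7 and 30.7 CPM, -0.60 ± 0.14, adjusted p = 0.0322. These calls were lost on removal of vehicle library 1, at adjusted p of 0.0681 to 0.184. Leaving out 1 library gave 0 to 7 falls and a median between -0.387 and -0.244. XBP1, the transcription factor of the response, was at 243, 289 and 263 CPM in vehicle and 199, 209 and 192 CPM in zotatifin tumours, -0.41 ± 0.12, adjusted p = 0.0775, without overlap and without a call. Of 34 translocon, glycosylation and signal peptidase genes, 0 were called, with a median of -0.071. Among 31 coat protein genes 1 fell, SAR1B, the GTPase that starts COPII vesicles, at 96, 100.3 and 92.1 CPM in vehicle and 59.6, 61.8 and 69.4 CPM in zotatifin tumours (-0.59 ± 0.12, adjusted p = 0.0184, and adjusted p = 0.105 without vehicle library 1).

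The best-known promoter element of this response is shown for the members that hold it. The ER stress element is CCAAT, any 9 bases, then CCACG, the site of NF-Y with ATF6 or XBP1. It was searched on both strands of the 250 bases upstream of each RefSeq start in GRCh38.p14, for the 10692 tested transcripts whose promoter could be matched. It stood in 16 of these promoters (0.15%), and 7 of the 16 belong to the 32 matched members of the ER list (21.9%). Of the 4 called members, HSPA5 holds it and HYOU1, UGGT1 and SYVN1 do not have these letters in the window. Further motifs were searched in the same windows, and the ER stress element is the one shown. Among the others, the core of the unfolded protein response element, TGACGTG, stood at -188 to -182 in HYOU1. That core was in 2.06% of all matched promoters, 2.11% of those of falls and 2 of the 32 in the ER list. Each window below gives the ER stress element in capitals with 5 bases on either side, 5′ to 3′ on the gene's strand. Where the element lies on the opposite strand, the capitals start with CGTGG.
HSPA5, chr9:125241386-125241414, minus strand: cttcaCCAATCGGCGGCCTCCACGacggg
XBP1, chr22:28800598-28800626, minus strand: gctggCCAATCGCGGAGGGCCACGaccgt
CANX, chr5:179698773-179698801, plus strand: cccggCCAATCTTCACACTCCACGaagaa
ERO1B, chr1:236282178-236282206, minus strand: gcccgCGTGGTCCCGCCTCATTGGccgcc
HSP90B1, chr12:103930211-103930239, plus strand: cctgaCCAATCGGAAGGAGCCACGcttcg
HSP90B1, chr12:103930316-103930344, plus strand: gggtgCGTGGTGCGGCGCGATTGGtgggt
CALR, chr19:12938379-12938407, plus strand: ccacgCGTGGTCGACCATCATTGGtcggt
CRELD2, chr22:49918549-49918577, plus strand: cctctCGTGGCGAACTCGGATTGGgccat
Upstream of HSPA5 the element spans positions -66 to -48 from the start. The 200 bases before that start, chr9:125241344-125241543 on the minus strand, carry it in capitals.
HSPA5: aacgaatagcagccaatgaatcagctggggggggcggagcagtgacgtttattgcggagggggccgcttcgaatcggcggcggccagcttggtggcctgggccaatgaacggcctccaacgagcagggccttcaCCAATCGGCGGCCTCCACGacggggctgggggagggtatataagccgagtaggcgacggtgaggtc
The 7 genes had a median change of -0.39, and 1 of them, HSPA5, was called. Their changes were -0.71 for HSPA5, -0.51 for ERO1B, -0.41 for XBP1, -0.39 for CANX, -0.22 for HSP90B1, -0.11 for CALR and 0.08 for CRELD2. The other 9 promoters with the element, which lie outside the list, had a median change of -0.12 and no call. A match describes the letters of the window and no binding was measured.

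By edgeR, sterol genes were called only as falls, while DESeq2 on the same transcripts called 1 rise and 4 falls. At an unadjusted p under 0.05, 2 were higher and 7 lower. Of 32 tested genes of cholesterol synthesis and its regulators, 3 fell (9.38%, beside 0.907% of all transcripts) and 0 rose. Their median was -0.148. INSIG1, which retains the SREBP complex in the ER and is itself an SREBP target, was at 133, 164 and 106 CPM in vehicle and 89.6, 74.9 and 82 CPM in zotatifin tumours, -0.71 ± 0.14, adjusted p = 0.0165. SC5D, a late desaturase of the pathway, was at 42.3, 40.1 and 43.4 CPM and 27.6, 30.8 and 25.8 CPM, -0.58 ± 0.15, adjusted p = 0.0475. Both genes separated the groups without overlap, and both calls were lost on removal of vehicle library 1 (adjusted p = 0.119 and 0.165). FDFT1, squalene synthase, had a change in the other direction, from 385, 511 and 477 CPM to 588, 646 and 602 CPM, and was not called (0.42 ± 0.13, adjusted p = 0.0927). SREBF2, the master regulator, had a change of -0.23 ± 0.12, adjusted p = 0.293. Of 23 fatty acid synthesis genes 0 were called by edgeR, and DESeq2 called 1 fall.

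**Figure D2:**
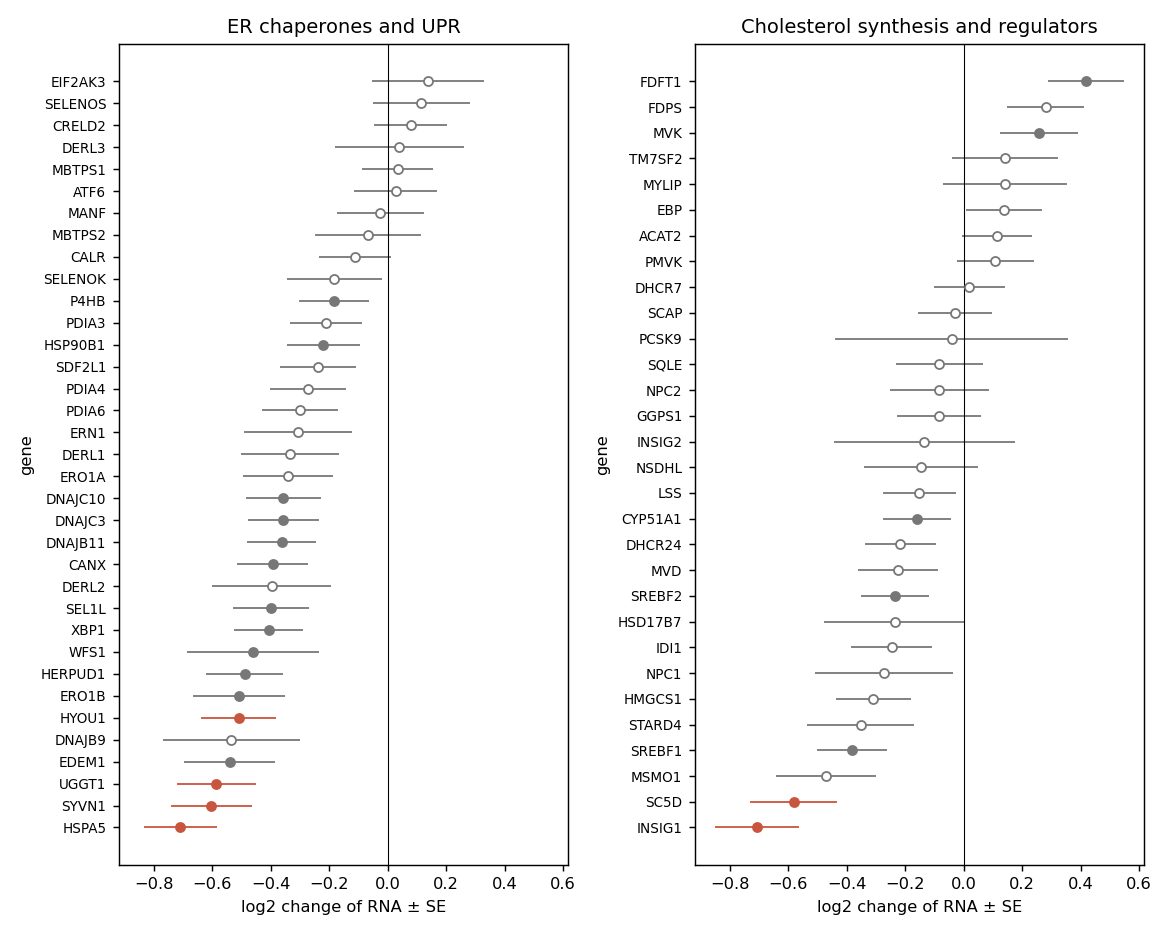
Log2 change of RNA (zotatifin over vehicle, with its SE) for tested members of the ER list and of the cholesterol list; red points are calls, filled points have no overlap between the 3 vehicle and 3 zotatifin values, and open points overlap. HSPA5, SYVN1, UGGT1 and HYOU1 are the calls on the left and INSIG1 and SC5D those on the right, while FDFT1 lies highest on the right.

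Other stress programmes held few calls. Of 28 tested targets of the integrated stress response, which ATF4 drives, 0 were called by edgeR or DESeq2 (median 0.052), and 2 were higher and 3 lower at an unadjusted p under 0.05. ATF4 was at 584, 523 and 505 CPM in vehicle and 529, 661 and 536 CPM in zotatifin tumours, 0.10 ± 0.13, adjusted p = 0.72, and DDIT3 (CHOP) at 33.6, 34 and 38.7 CPM and 27.2, 31.6 and 23.8 CPM, -0.37 ± 0.16, adjusted p = 0.216. Amino acid transporters, which include ATF4 targets, held no call by edgeR among 26, and 6 had a change above 0 (median -0.211). At an unadjusted p under 0.05, 0 were higher and 6 lower, and DESeq2 called 1 fall. In 8 of the 26 the zotatifin values lay entirely below the vehicle values, with 0 entirely above. Over all transcripts tested, 23.1% did not overlap in either direction. SLC7A5, a large neutral amino acid carrier, was at 102, 80.9 and 73.8 CPM in vehicle and 66.7, 63.5 and 47.1 CPM in zotatifin tumours, -0.53 ± 0.15, adjusted p = 0.0658. Of 28 cytosolic heat shock transcripts 1 fell, HSPA8, the constitutive HSP70, at 1707, 1853 and 1779 CPM in vehicle and 1264, 1176 and 1322 CPM in zotatifin tumours, -0.50 ± 0.12, adjusted p = 0.0394 (adjusted p = 0.131 without vehicle library 1). In the p53 list 29 were tested and 1 fell, ZMAT3, an RNA-binding p53 target, from 39.7, 44.5 and 48.7 CPM to 27.6, 22.9 and 27.5 CPM (-0.77 ± 0.15, adjusted p = 0.0151, and adjusted p = 0.0906 without vehicle library 3). CDKN1A (p21) and MDM2, the canonical p53 targets, had changes of -0.09 and -0.01 and overlapped between the groups. Targets of NRF2 (30 tested) and interferon and inflammatory genes (22 tested) held no call by edgeR. DESeq2 called 1 rise and 1 fall in the NRF2 list and 1 fall in the interferon list.

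Metabolic genes gave single calls. SMOX, spermine oxidase, was at 6.99, 4.58 and 8.76 CPM in vehicle and 13.7, 18.2 and 14.3 CPM in zotatifin tumours, 1.17 ± 0.26, adjusted p = 0.0261. ODC1, the first enzyme of polyamine synthesis, stayed between 443 and 527 CPM (-0.13 ± 0.12, adjusted p = 0.606). SMOX was the 1 call by edgeR among 16 tested polyamine genes (6.25%, beside 1.72% of all transcripts), and DESeq2 called 2 rises there. SLC2A1 (GLUT1), the glucose transporter, was at 115.8, 115 and 141 CPM in vehicle and 172, 248 and 184 CPM in zotatifin tumours, 0.70 ± 0.14, adjusted p = 0.016. It was the 1 call among 20 glycolysis genes and among 29 hypoxia genes (5.0% and 3.45%, beside 1.72% of all transcripts). Neither SMOX nor SLC2A1 overlapped between the groups, and both were lost on removal of vehicle library 1 (adjusted p = 0.133 and 0.151).

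The machinery of growth shifted little and in small steps. Cytosolic ribosomal proteins (88 tested, 78 above 0, median 0.106), the nuclear-encoded respiratory chain and ATP synthase (82 tested, 61 above 0, median 0.125), mitochondrial ribosomal proteins (79 tested, 59 above 0, median 0.110) and the proteasome (47 tested, 37 above 0, median 0.130) held 0 calls by edgeR or DESeq2. At an unadjusted p under 0.05, 1, 7, 5 and 6 members of these lists were higher and 1, 0, 0 and 1 lower. RPL38, a ribosomal protein, was at 324, 337 and 323 CPM in vehicle and 366, 525 and 323 CPM in zotatifin tumours, highest in zotatifin library 2. Without zotatifin library 2 the ribosomal protein median was -0.038 and the respiratory chain median 0.003, and without any other library they were at least 0.092 and 0.073. Of 63 transcripts for RNA polymerase II, elongation and 7SK factors, 44 were above 0 (median 0.140) and 1 rose, TAF7, a TFIID subunit, at 56.7, 60.6 and 58.3 CPM in vehicle and 86, 95.3 and 84 CPM in zotatifin tumours (0.60 ± 0.12, adjusted p = 0.0184, and adjusted p = 0.13 without vehicle library 1). HEXIM1, an inhibitor of P-TEFb, was at 22.2, 19.6 and 25.6 CPM and 34.5, 35.8 and 31 CPM, 0.58 ± 0.16, adjusted p = 0.0629. Of 72 splicing transcripts 1 rose, RBM10 (0.60 ± 0.12, adjusted p = 0.0155), and 1 fell, CELF2 (-1.85 ± 0.43, adjusted p = 0.0322); of 51 decay genes 1 rose, CNOT8, a deadenylase (0.68 ± 0.13, adjusted p = 0.0124). These 3 calls were lost on removal of vehicle library 3, with adjusted p of 0.0684, 0.0906 and 0.203 for CNOT8, RBM10 and CELF2.

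**Figure D3:**
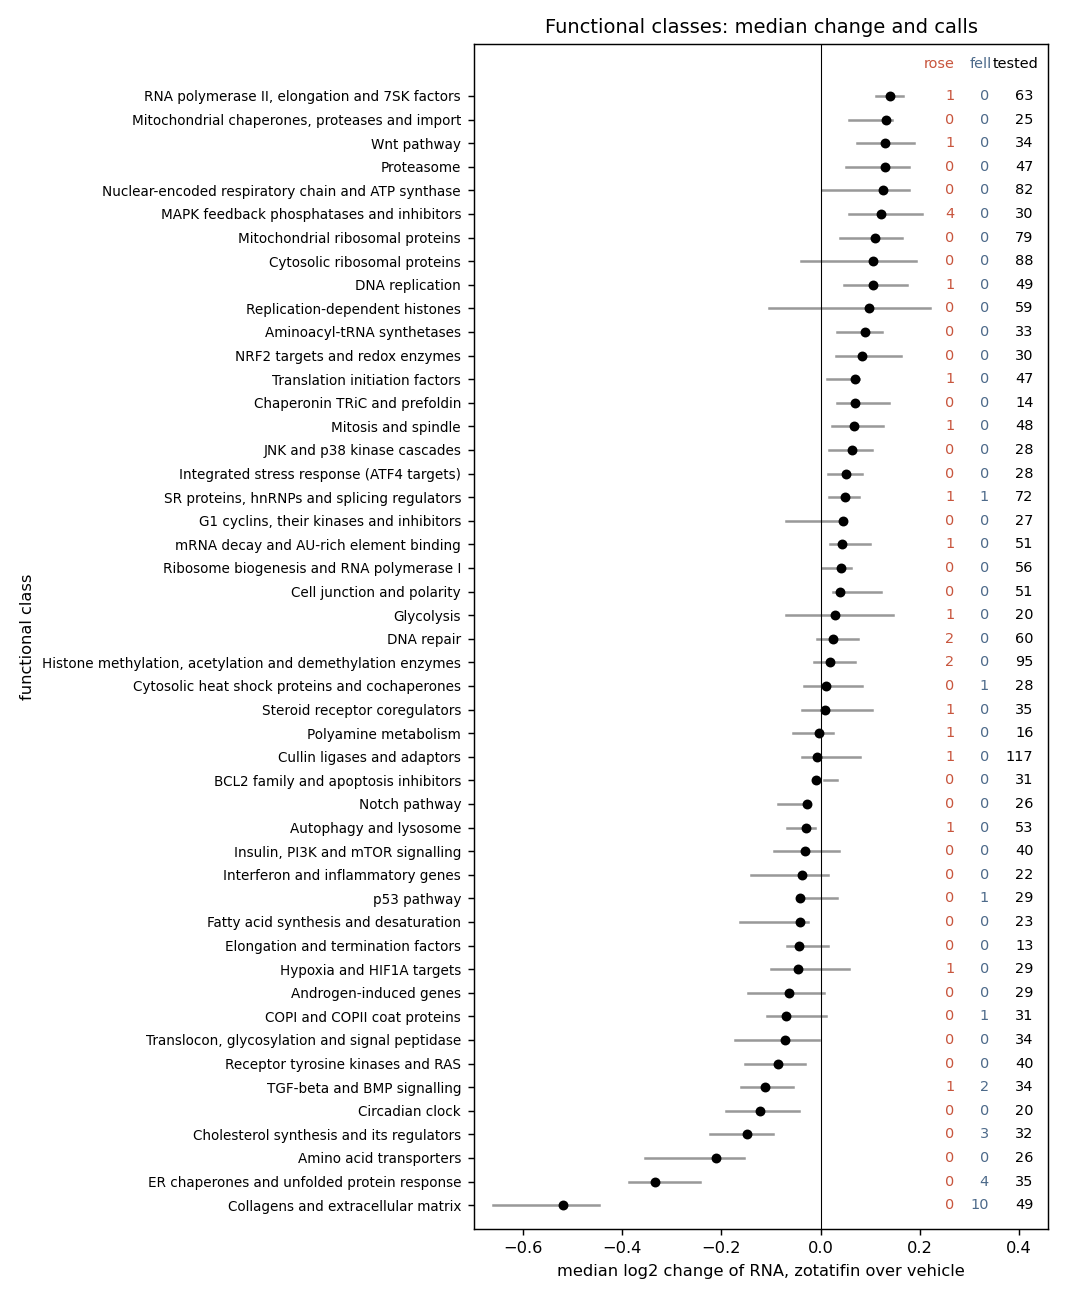
Median log2 change of RNA in each of 48 functional classes (black points) with the range of that median when 1 library was left out (grey lines); the columns give how many members rose, fell and were tested. The matrix and ER lists lie lowest, at -0.521 and -0.334, and no list has a median above 0.140.

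Translation factors, the machinery that zotatifin acts on, were close to even. Of 47 initiation factors 1 rose, EIF6, which keeps ribosomal subunits apart, at 87.4, 87.9 and 93.6 CPM in vehicle and 124, 149 and 112 CPM in zotatifin tumours (0.52 ± 0.13, adjusted p = 0.042, and adjusted p = 0.189 without vehicle library 1). EIF4A1, the target helicase, was at 1037, 1309 and 1207 CPM in vehicle and 1386, 1474 and 1371 CPM in zotatifin tumours, 0.25 ± 0.13, adjusted p = 0.293. EIF4A2, its paralog, was at 81.8, 122 and 90.7 CPM and 136, 147 and 131 CPM, 0.49 ± 0.14, adjusted p = 0.0657. The groups did not overlap for EIF4A1 or EIF4A2, and neither was called. EIF4A3 of the exon junction complex and EIF4G1, the scaffold, had changes of 0.07 and 0.04 and overlapped. None of 13 elongation and termination transcripts was called.

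Cell cycle and DNA repair genes held 4 rises. TPX2, a spindle assembly factor, was at 164, 176 and 179 CPM in vehicle and 263, 255 and 273 CPM in zotatifin tumours, 0.61 ± 0.12, adjusted p = 0.0124. PRIMPOL, which restarts stalled replication forks, was at 18.2, 12.1 and 13.8 CPM and 26.6, 29.1 and 26.3 CPM, 0.90 ± 0.18, adjusted p = 0.0178. XRCC3, a protein of homologous repair, was at 41.3, 33.7 and 35.9 CPM and 55.3, 56.7 and 49.5 CPM, 0.54 ± 0.14, adjusted p = 0.0496. These genes separated the groups, and without vehicle library 3 their adjusted p ran from 0.0638 to 0.16. The counts were 1 of 48 for mitosis, 1 of 49 for replication and 2 of 60 for repair, against 0.808% of all transcripts that rose. DONSON, a replisome protein outside these lists, fell from 136, 75 and 110.4 CPM to 46.9, 43.1 and 41.5 CPM (-1.28 ± 0.16, adjusted p = 0.000307) and stayed called without any 1 library. Replication-dependent histones (59 tested) and G1 cyclins and kinases (27 tested) held no call. CCND1, cyclin D1, was at 3424, 3193 and 3077 CPM in vehicle and 3745, 3309.7 and 3789 CPM in zotatifin tumours, 0.16 ± 0.13, adjusted p = 0.52. Of 95 histone-modifying enzymes and readers 2 rose, among them SETDB2, a histone methyltransferase (0.70 ± 0.18, adjusted p = 0.0497), lost on removal of vehicle library 1 (adjusted p = 0.213).

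Androgen-induced genes were not called. Of 29 tested 0 were called by edgeR or DESeq2 (12 above 0, median -0.063; 3 higher and 4 lower at an unadjusted p under 0.05), and of 35 genes in the list of steroid receptor coregulators 1 rose, BRD2, a bromodomain protein, at 277, 285 and 237 CPM in vehicle and 390.1, 367 and 361 CPM in zotatifin tumours (0.48 ± 0.12, adjusted p = 0.0446, and adjusted p = 0.182 without vehicle library 3). KLK3 (PSA) was at 8.57, 14.2 and 18.5 CPM in vehicle and 11.1, 12 and 9.52 CPM in zotatifin tumours, -0.35 ± 0.25, adjusted p = 0.483. FOXA1, the pioneer factor, had a change of -0.11 ± 0.12, adjusted p = 0.662. MYC was at 262, 278 and 252 CPM in vehicle and 309.8, 362 and 307 CPM in zotatifin tumours, 0.30 ± 0.12, adjusted p = 0.18; its groups did not overlap and it was not called. MCL1, a short-lived BCL2 relative, had a change of 0.19 ± 0.12, adjusted p = 0.415, and 31 tested BCL2 family genes and apoptosis inhibitors held no call by edgeR. DESeq2 called 1 rise among these 31. Of the Wnt genes 34 were tested and 1 rose, FZD8, a receptor, from 18, 18.8 and 17.2 CPM to 30.5, 29.6 and 25.5 CPM (0.66 ± 0.17, adjusted p = 0.0446, and adjusted p = 0.159 without vehicle library 1). Notch, PI3K and receptor tyrosine kinase lists (26, 40 and 40 tested) held no call by edgeR, and DESeq2 called 1 rise in the PI3K list.

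Extracellular matrix genes held the most falls of any class, and they moved with markers of stromal cells. Of 49 tested, 10 fell (20.4%, beside 0.907% of all transcripts) and 0 rose. At an unadjusted p under 0.05, 18 were lower and 0 higher, and DESeq2 called 12 falls. The list's median was -0.521, and 40 members were below 0. COL1A2, a chain of type I collagen, was at 42, 35 and 55.9 CPM in vehicle and 15.7, 13.1 and 7.41 CPM in zotatifin tumours, -1.88 ± 0.22, adjusted p = 0.000125. FBN1, fibrillin, was at 19.9, 22.1 and 35.6 CPM and 8.95, 6.39 and 6.48 CPM, -1.83 ± 0.24, adjusted p = 0.000307. TIMP2, a protease inhibitor, was at 21, 17 and 26.6 CPM and 9.19, 7.79 and 6.61 CPM, -1.45 ± 0.23, adjusted p = 0.00286. These 3 stayed called without any 1 library. THBS1, a matrix glycoprotein that many epithelial cells also make, was at 81.1, 68.1 and 96.4 CPM and 48.2, 42.1 and 48.3 CPM, -0.83 ± 0.14, adjusted p = 0.00546 (adjusted p = 0.0681 without vehicle library 1). The other falls were COL1A1, COL5A1, COL5A2, COL12A1, SPARC and LAMA5, from -1.78 to -0.57. COL12A1 was lost on removal of vehicle library 3 (adjusted p = 0.0519), and the other 5 of these without vehicle library 1 (adjusted p of 0.0652 to 0.19). Leaving out 1 library gave 4 to 10 falls. Basement membrane genes, which epithelia also make, were spread out, from COL4A1 at -1.28 ± 0.51, adjusted p = 0.179 and LAMA4 at -0.95 ± 0.46, adjusted p = 0.274 to COL4A5 at -0.20 ± 0.14, adjusted p = 0.465 and LAMC1 at -0.17 ± 0.13, adjusted p = 0.514. LUM, a fibroblast proteoglycan, had a change of 0.47 ± 0.53, adjusted p = 0.676. These 5 genes were chosen after their values were seen.

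The 17 fibroblast markers summed to 349.8 to 685 CPM in vehicle and 149 to 247 CPM in zotatifin tumours, without overlap. Of 10 tested, 5 fell, and those 5 are matrix genes named above, so the marker sum and the matrix list are not independent. The 17 myeloid and leukocyte markers summed to 33.7 to 109.9 CPM in vehicle and 20.4 to 39.7 CPM in zotatifin tumours, which overlap, and 4 of 7 tested fell: LAPTM5, CSF1R, SPI1 and CYBB. CSF1R, the receptor of macrophage colony-stimulating factor, was at 3.85, 2.29 and 2.36 CPM in vehicle and 0.605, 0.467 and 0.265 CPM in zotatifin tumours, -2.60 ± 0.58, adjusted p = 0.0284. CSF1R and LAPTM5 reached the low-count filter's cut of 1.46 CPM in every vehicle and no zotatifin library, so they were tested only because vehicle values were high, and the count over the 7 tested carries that choice. These 4 were lost on removal of vehicle library 1 (adjusted p of 0.159 to 0.227), and TYROBP, a defining marker, was at 0 in every library. Endothelial markers summed to 7.69 to 22.1 CPM in vehicle and 6.35 to 9.50 CPM in zotatifin tumours with 2 of 12 tested and 0 called. Red blood cell markers summed to 21.8 to 42.8 and 18.9 to 26.3 CPM, where HBB, a globin, fell (-1.51 ± 0.39, adjusted p = 0.0496, and adjusted p = 0.292 without vehicle library 1). Lymphocyte markers summed to 41.4 to 65.4 and 37.5 to 40.2 CPM, with CD2, CD3E and CD79B at 0. These sums did not overlap either, although NSG mice lack mature lymphocytes, so a marker sum was not read as a count of cells. Basal epithelial markers summed to 124 to 135 and 100.3 to 111 CPM, without overlap, and neuroendocrine markers to 127 to 159.6 and 121 to 136 CPM. No call was made in the basal and neuroendocrine lists. The labels name no step that separated mouse from human reads, so the species of these transcripts cannot be told. In bulk tumours, fewer cells of a type and less RNA per cell cannot be told apart. Whether the content of stromal cells had a part in the matrix, SPI1 and POU2F2 results was not tested.

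**Figure D4:**
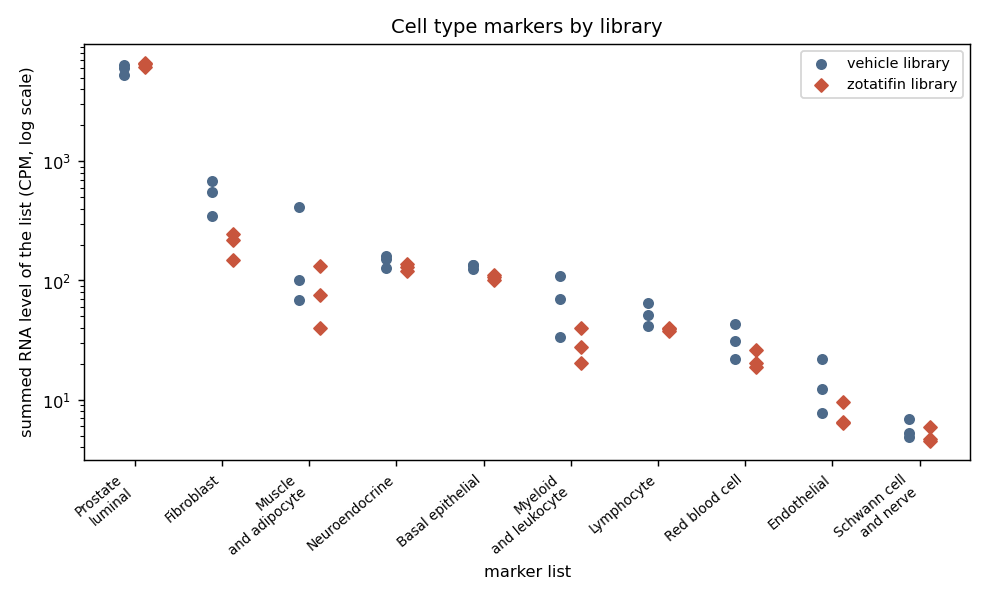
Summed RNA level (CPM, log scale) of 10 cell type marker lists in each library, with circles for vehicle and diamonds for zotatifin. The fibroblast values of the 3 zotatifin libraries lie below those of the 3 vehicle libraries, the luminal values lie close together, and vehicle library 2 stands apart in the muscle and adipocyte list.

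Transcripts too low for footprints differed in direction from the rest. Of the 13118 tested, 9454 would also have passed the same filter in the footprint libraries and 3664 (27.9%) would not. Of the 119 falls, 53 (44.5%) were in the 3664, and of the 106 rises 5 (4.72%). The 5 include TSC22D4, ZNF174, TGFB3 and ZNF672, and the other was LRRC61 (0.70 ± 0.18, adjusted p = 0.0482, and adjusted p = 0.184 without vehicle library 1). The median change of the 3664 was -0.14, against 0.024 for the 9454. The gap was also seen at equal level. Among transcripts with a mean of 200 to 500 counts per library, 33.7% of those without footprints had a change above 0, against 52.4% of those with them. Between 50 and 100 counts the shares were 41.9% and 55.8%. These transcripts took 6.65%, 5.78% and 6.36% of the tested counts in the vehicle libraries and 4.96%, 5.44% and 4.70% in the zotatifin libraries. Without PLCG2, SIAE and MTRNR2L8 the shares were 4.12%, 3.74% and 4.23%, and 3.74%, 3.64% and 3.60%, so that vehicle library 2 and zotatifin library 1 then met.

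Some of these falls had high counts. For PLCG2, whether the counts come from its mRNA was not tested. PLCG2 was at 25439, 20557 and 21037 CPM in vehicle and 11971, 18435 and 10801 CPM in zotatifin tumours, -0.70 ± 0.17, adjusted p = 0.0387. It failed the footprint filter despite the highest RNA level of any call, and its call was lost on leaving out any library but zotatifin library 2, with an adjusted p of 0.225 after vehicle library 1 was left out. SULT1B1, a sulfotransferase, was at 485, 439 and 687 CPM in vehicle and 322, 382 and 341 CPM in zotatifin tumours, -0.63 ± 0.15, adjusted p = 0.0342. RILPL2 was at 198, 137 and 229.8 CPM and 102, 128 and 115 CPM, -0.71 ± 0.15, adjusted p = 0.0239, SHISA9 at 190.1, 186 and 266 CPM and 134, 136 and 153 CPM, -0.60 ± 0.14, adjusted p = 0.0302, and TMEM212 at 61, 53 and 75.1 CPM and 35.3, 30.7 and 37.2 CPM, -0.87 ± 0.15, adjusted p = 0.00546. The groups of these genes did not overlap, and without vehicle library 3 the adjusted p of the last 4 ran from 0.0684 to 0.192. SULT1B1, RILPL2 and SHISA9 were singled out after their values were seen. Members of near-identical families, all but POTEI and ACTBL2 chosen after their values were seen, also fell, and their counts are uncertain because reads can be shared with copies: POTEI, POTEJ, POTEE and POTEG by -0.90, -0.74, -0.69 and -1.39, NPIPB5 and NPIPB13 by -0.89 and -0.95, the pseudogene-like MTRNR2L5 by -1.57 and ACTBL2 by -2.23 on the log2 scale. Each of these 8 was lost on removal of vehicle library 1 (adjusted p of 0.0652 to 0.159).

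**Figure D5:**
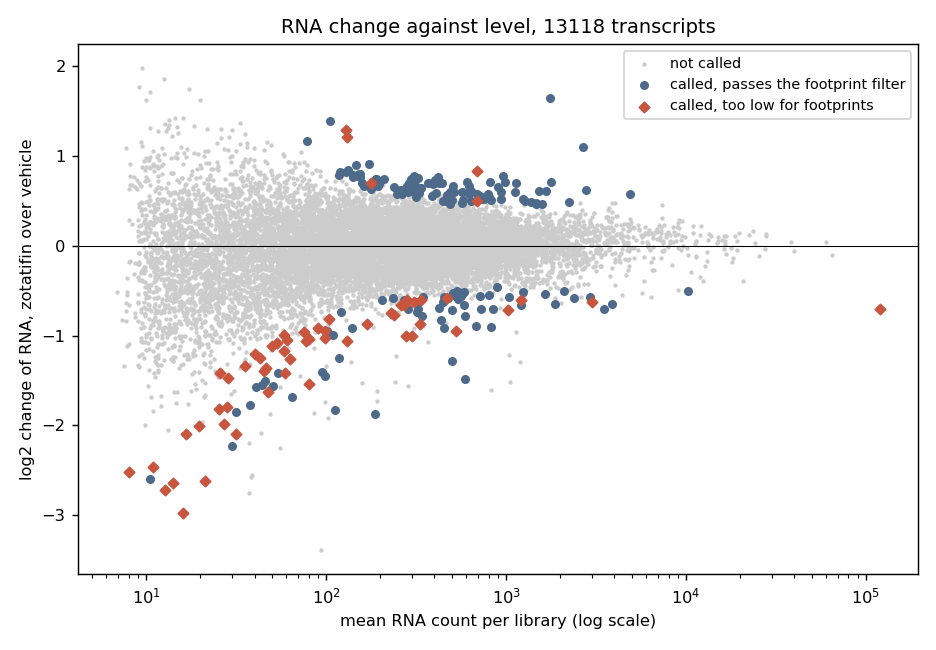
Log2 change of RNA against the mean RNA count per library (log scale) for 13118 transcripts; grey dots are not called, blue circles are calls that pass the footprint filter and red diamonds calls that do not. Rises lie mostly at middle and high levels, with 0 called below 50 counts, while 28 falls lie there.

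Rises and falls were unevenly spread over the range of levels. Below a mean of 50 counts per library, 2556 transcripts were tested, and edgeR called 0 rises and 28 falls. At an unadjusted p under 0.05, 102 of these were higher and 266 lower, and DESeq2 called 2 rises and 38 falls. Between 50 and 500 counts 61 rose and 55 fell of 7339, and from 500 counts up 45 rose and 36 fell of 3223. The fallen transcripts below 50 counts include LAPTM5, MACC1, RASSF4, CYTH4 and IRAK3, of which LAPTM5 is a marker of the myeloid list. MACC1 was at 5.77, 1.96 and 5.42 CPM in vehicle and 0.484, 0.935 and 0.265 CPM in zotatifin tumours, -2.97 ± 0.57, adjusted p = 0.0124, and IRAK3, an inhibitor of Toll-like receptor signalling, at 5.94, 3.93 and 9.46 CPM and 1.81, 2.34 and 0.794 CPM, -1.98 ± 0.44, adjusted p = 0.0261. LAPTM5, MACC1 and RASSF4 reached the filter's cut of 1.46 CPM in every vehicle and no zotatifin library, and CYTH4, IRAK3, ZBTB18, CELF2 and ACTBL2 in every vehicle and 2 zotatifin libraries. Of the 28 falls, 14 reached it in every vehicle library but in fewer than 3 zotatifin libraries, and among all 2556 transcripts 254 did so, against 293 that reached it in every zotatifin but fewer than 3 vehicle libraries. Such transcripts entered the test through the group where they were high. Vehicle library 2 was the lowest vehicle library for LAPTM5, MACC1, RASSF4, CYTH4 and IRAK3, and without vehicle library 1 their adjusted p was 0.131 to 0.161. MACC1 was also singled out after its values were seen.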

How the data were processed

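The RNA of 6 xenograft tumours (3 vehicle, 3 zotatifin) was analysed from the deposited table of raw counts per transcript, 19038 transcripts with 19027 symbols, as made by the authors. The submitters' processing notes name hg38 and the tools DESeq2, Bowtie2 2.3.5, cutadapt 2.3 and UMI-tools; the order of steps, strand setting and any removal of mouse reads were not given in those notes or in the labels. In the authors' deposited RNA comparison, per its header, fold changes and their errors are log2 values, the baseline is a signal (normalised counts), a Wald score stands beside them, and the p-value is given raw and adjusted. The deposited footprint counts were used to apply the same low-count filter there, and for nothing else.

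The low-count filter was filterByExpr with a minimum count of 10 and a minimum total of 15. The counts were scaled by TMM and tested with the robust quasi-likelihood F test of edgeR 4.0.16 in R 4.3.3, with Benjamini-Hochberg adjustment over all 13118 tested. CPM uses TMM-scaled library sizes, and an SE is the log2 change divided by the square root of F. The test was also run on simulated counts with the same fixed dispersion for every transcript. That setting lacks the uneven spread of these libraries, so nothing about error rates here is concluded from it. Genes were described through 77 lists (48 classes, 19 factor families, 10 marker lists) by counts and medians, with no set test. The members and lists were chosen with earlier results of these data known. Of 19027 symbols, 18926 matched RefSeq (GRCh38.p14), the source of positions and promoters.

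Named genes are, among calls averaging 20 counts or more, the 10 smallest adjusted p and the 10 largest changes in each direction and every called listed factor; in each class the 4 members with the smallest adjusted p; and 30 genes chosen by name. The text names many of these, and some members of the lists are not reported here by name; other genes named, including DUSP6, E2F8, LRRC61, PLCG2, CSF1R, LAPTM5, CYBB, HBB, COL1A1, COL5A2, SPARC and LAMA5, were chosen after their values were seen.

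Replicate numbers were checked for pairing on 10562 transcripts with a mean of at least 50 counts (log2 CPM, prior count 2): the deviations from the group means correlated at 0.0967, 0.0772 and -0.012 for equal numbers and at -0.166 to 0.126 for others, so the numbers were not taken to pair the tumours. Alternatives covered other scaling factors, DESeq2 1.42.0, other filters, no robust moderation, the replicate block, summed symbols and each library left out.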

Additional observations from a re-analysis of the deposited data

How the results depend on the processing

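Against 225 calls (106 rises, 119 falls), leaving out 1 library in turn gave 11 to 396 calls, with 6 to 134 rises and 5 to 262 falls. Without a low-count filter there were 624 calls (274 and 350), and with a mean of at least 50 counts 140 (67 and 73). DESeq2 on the same transcripts called 355 (202 falls, 153 rises), among them the 225, and with its independent filtering 327. The replicate block gave 527 calls (229 and 298), which include 222 of the 225; the numbers share no known source. RLE factors, upper-quartile factors, no robust moderation, summed symbols and leaving out PLCG2, SIAE and MTRNR2L8 (chosen after seeing the data) gave 190 to 225 calls. No named gene that was called changed sign under any of these. Of 2556 transcripts below a mean of 50 counts, edgeR called 0 rises and 28 falls, and DESeq2 2 and 38; the cause was not tested.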

Other observations

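Further called genes outside the lists are given singly. They were chosen after their values were seen, no group was counted or tested, and nothing is claimed of the families they belong to. Genes that rose include BMI1 of Polycomb (0.66 ± 0.16, adjusted p = 0.0412), MTA2 and RBBP7 of the NuRD complex (0.47 ± 0.12, adjusted p = 0.0423 and 0.54 ± 0.13, adjusted p = 0.0387), SAP30 of the SIN3 complex (0.52 ± 0.12, adjusted p = 0.0322) and NAB2, a corepressor of EGR factors (0.79 ± 0.17, adjusted p = 0.0275). BMI1 was at 22.7, 19.2 and 23.1 CPM in vehicle and 30.2, 37.4 and 35.5 CPM in zotatifin tumours, and the groups of these 5 genes did not overlap. PHC3, another Polycomb subunit, fell (-0.55 ± 0.14, adjusted p = 0.042), from 149, 137 and 135 CPM to 98.3, 76.2 and 113 CPM. ASH2L, a subunit of histone H3K4 methyltransferases, METTL3, the mRNA adenosine methyltransferase, and H1F0, a linker histone, rose by 0.53, 0.63 and 0.57 on the log2 scale. Each of these 9 calls was lost when vehicle library 1 was left out, with adjusted p from 0.13 to 0.209.

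TXNIP, an arrestin that lowers glucose uptake, rose from 302, 330.0 and 315 CPM to 405, 540.5 and 511 CPM (0.62 ± 0.13, adjusted p = 0.0184). The GTPase genes RAB24 (0.74 ± 0.14, adjusted p = 0.0143), RAB5A (0.50 ± 0.13, adjusted p = 0.0496) and ARF6 (0.49 ± 0.12, adjusted p = 0.0387) rose. Genes that fell include EMC1, a subunit of the ER insertase (-0.70 ± 0.16, adjusted p = 0.0297), SFT2D2 (-0.54 ± 0.12, adjusted p = 0.0302), GLG1 (-0.51 ± 0.13, adjusted p = 0.0428) and SLC26A2, a sulfate transporter (-0.70 ± 0.15, adjusted p = 0.0193). AGO2 of the miRNA machinery fell, at 265, 187 and 202 CPM in vehicle and 153, 104 and 156 CPM in zotatifin tumours (-0.66 ± 0.15, adjusted p = 0.0322), and so did ZC3HAV1, an antiviral RNA-binding protein (-0.70 ± 0.13, adjusted p = 0.0086), and CPSF6 of 3′ end processing (-0.45 ± 0.12, adjusted p = 0.0476). The calls of TXNIP and these 10 genes were lost when vehicle library 1 was left out, with adjusted p from 0.0681 to 0.209.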
